A study of Mus musculus with 28 samples.

Results

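The 6 mouse genes of DNA topoisomerases, Top1, Top1mt, Top2a, Top2b, Top3a and Top3b, were followed through 28 RNA-seq libraries of transformed mouse embryonic fibroblasts. They were taken by symbol from a table of raw counts with 24079 rows, and all 6 passed the filter on low counts that left 15099 genes for testing. The set was chosen by the low level of Top1mt in the libraries of the control siRNA labelled SCR, so that difference is described here without a test. Topoisomerases cut DNA strands, let the helix turn or another helix pass, and seal the cut, which removes the supercoils and tangles made by transcription and replication. Type IB enzymes (TOP1 in the nucleus, TOP1MT in mitochondria) nick 1 strand and let it swivel. Type IIA enzymes (TOP2A in dividing cells, TOP2B also in resting cells) cut both strands, and TOP2A separates sister chromosomes before division. Type IA enzymes work on single strands: TOP3A resolves recombination and replication intermediates in the nucleus and in mitochondria, and TOP3B also acts on RNA. TOP1MT is encoded by a nuclear gene and relaxes mitochondrial DNA.

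The cells were mouse embryonic fibroblasts of C57BL/6x129Sv background transformed with RAS and DNP53, and every line used was 1 clone or was derived from 1. Cyclin D1, a partner of cell cycle kinases, carried a C-terminal label named Ctag in clones 12 and 14 and no tag in clones 18 and 25. For both tagged clones there was 1 library of untreated cells, 1 with leptomycin B at 20 ng/mL (a blocker of nuclear export), 1 with SCR siRNA, 1 with each siRNA against a tag (FLAG or HA), and 1 with each of 3 siRNAs against cyclin D1 (Qiagen, Nature or Life). The untagged clones were sequenced once each after SCR, FLAG or HA siRNA. Clone 18 with mCherry/PURO, or with FLAG-mCherry-HA/PURO, gave 3 libraries each, with HA siRNA in REP1 and REP2 and FLAG siRNA in REP2. Cells were transfected or exposed in the evening and collected the next morning, so untreated cells differed from siRNA cells in the transfection reagent as well. The titles give an n of 3 or 4 for each library whose meaning the labels do not state, and each library counted as 1 sample.

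The libraries held 26558256 to 81512769 counts. Ccnd1, the targeted gene, stood at 50.1 to 329 CPM (counts scaled to a common library size) in the 10 tagged libraries with a targeting siRNA and at 1130 to 1290 CPM with SCR siRNA in the same clones. The fibroblast markers Col1a1, Col1a2 and Thy1 were close to absent in clone 14, at medians of 0.471, 1.16 and 0 CPM. Pdgfra, Pdgfrb and Fn1 were also lowest there, at medians of 4.54, 2.44 and 247 CPM, against 68.8 to 131, 8.16 to 45.9 and 1850 to 2810 CPM in the other clones. S100a4 had a median of 199 CPM in clone 25 and 2330 to 3490 CPM in the others. Vim reached at least 2770 CPM in all 28 libraries. The endothelial markers summed to at most 1.95 CPM, the macrophage and blood markers to 2.41 to 6.82 CPM with Emr1 at 0 in all 28, and 3 of 6 epithelial markers had a median of at least 1 CPM, led by Krt18 at 86.5 to 1920 CPM. The ranges of these marker sums overlapped between SCR and other libraries, and their part in the results was not tested. The SCR library of clone 12 stood apart with the largest total and counts for only 14132 genes, fewer than in any other library. The precursor Rn45s took over 2% of counts in 4 libraries, from HA clone 12, Nature clone 14, Life clone 14 and mCherry HA REP2.

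Positions are given on mm10. Top1 (gene 21969) lies on the plus strand of chromosome 2, 160645897 to 160722764, and Top1mt (gene 72960) on the minus strand of chromosome 15, 75657033 to 75678800. Top2a (gene 21973) lies on the minus strand of chromosome 11, 98992947 to 99024199, and Top2b (gene 21974) on the plus strand of chromosome 14, 16365206 to 16430787. Top3a (gene 21975) lies on the minus strand of chromosome 11, 60738209 to 60777365, and Top3b (gene 21976) on the plus strand of chromosome 16, 16870722 to 16892986. Because reads were 100 bases long, the longest stretch that the annotated transcripts of each pair of relatives share shows whether their reads could be confused. These exact stretches are in capitals:
Top1 and Top1mt: CAGGCAATGAGAAGGAAGA
Top2a and Top2b: CGAGAAGCCTCTCATAAACAGAT
Top3a and Top3b: GTTATGAGATGT
They are 19, 23 and 12 bases long, all shorter than a read. Overlap with genes on the other strand was a separate matter, as the sources used here do not give the strand setting of the counting. Top2b shares 1793 exon bases, 17.3% of its exon length, with the antisense gene Rarb, which was counted at no more than 1.76 CPM. Top3b shares 87 exon bases with Vpreb1, which reached 0.303 CPM at most, and Top1mt shares 95 with the antisense transcript Gm15945, which was not analysed here.

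The sequences upstream of the type IIA pair are shown because Top2a was lower together with genes of chromosome condensation after targeting siRNAs, and Top2b is its closest relative. Each is the 250 bases before the start used for the RefSeq promoter windows on GRCm38.p6, on the gene's strand. For Top2a that start lies just inside the gene span given above, which reaches 99024199, so the last bases of its window overlap the gene. Capitals mark the CCAAT box (CCAAT, or ATTGG on the other strand), a motif known from many promoters, and the hexamers TTTGAA (or TTCAAA) and TTCGAA known as cell cycle homology regions, searched on both strands. The Top2a window spans chr11:99024190-99024439 on the minus strand and the Top2b window chr14:16364956-16365205 on the plus strand.
Top2a: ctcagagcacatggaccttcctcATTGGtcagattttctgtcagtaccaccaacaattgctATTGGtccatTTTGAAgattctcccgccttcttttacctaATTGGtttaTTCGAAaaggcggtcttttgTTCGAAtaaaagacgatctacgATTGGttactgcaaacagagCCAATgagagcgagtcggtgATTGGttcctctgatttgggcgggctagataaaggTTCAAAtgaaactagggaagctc
Top2b: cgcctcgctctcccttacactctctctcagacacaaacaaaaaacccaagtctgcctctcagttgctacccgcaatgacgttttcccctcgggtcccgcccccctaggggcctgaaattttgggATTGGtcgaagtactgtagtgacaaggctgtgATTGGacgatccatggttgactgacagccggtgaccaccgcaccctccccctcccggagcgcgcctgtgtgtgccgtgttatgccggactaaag
The Top2a window held 6 CCAAT boxes, a number reached by 0.0578% of 32851 promoter windows of the same length, 2 TTTGAA hexamers (1.81% of windows hold as many) and 2 TTCGAA hexamers (0.0183%). The Top2b window held 2 CCAAT boxes (10.1%) and neither hexamer. None of these motifs overlapped another. RefSeq windows were at hand for 4 of the 6 genes. The Top3b window had 1 CCAAT box, which 33.8% of windows have, and the Top1 window had none, but held 3 GC boxes (GGGCGG), as many as in 8.47% of windows. These are matches of letters, not measured binding.

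Per kilobase of exon, Top2a transcripts were the most abundant of the 6 and Top3a transcripts the least. The median over 28 libraries was 124 CPM per kilobase for Top2a, 58.8 for Top1, 14.1 for Top2b, 9.43 for Top3b, 7.24 for Top1mt and 4.12 for Top3a. Top2a exceeded Top1, and Top1 exceeded Top2b, in 28 of 28 libraries. The lower places were less fixed: Top2b was above Top3b in 25 libraries, Top3b above Top1mt in 25 and Top1mt above Top3a in 24. All 4 libraries in which Top1mt fell below Top3a were SCR libraries. Over all 28 libraries the highest level of Top1mt was 5.18 times its lowest, against 3.19 for Top2b, 2.57 for Top2a, 2.37 for Top1, 1.87 for Top3b and 1.66 for Top3a. That first place follows from the SCR libraries by which Top1mt was chosen. Outside SCR, Top1mt ran from 10.1 to 20.0 CPM, a narrower relative span than Top2b (72.5 to 232 CPM), Top2a (380 to 978 CPM) and Top1 (131 to 310 CPM).

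**Figure D1:**
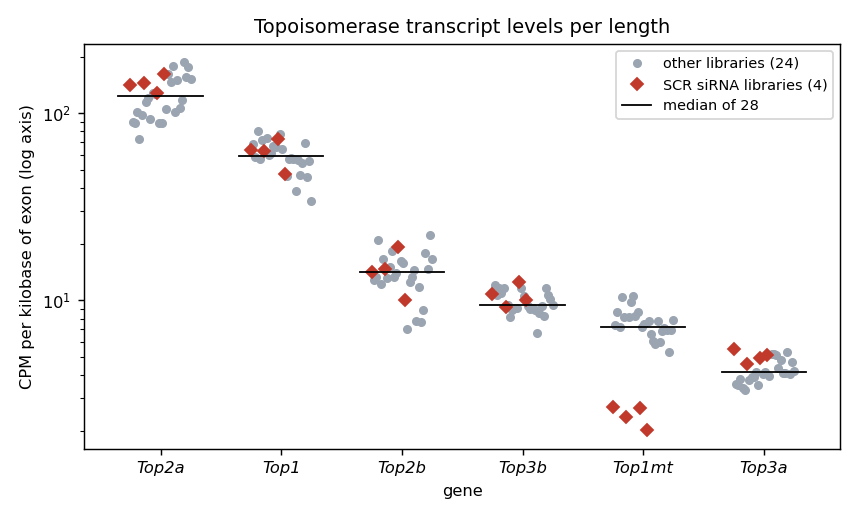
Transcript levels of the 6 topoisomerase genes in CPM per kilobase of exon on a log axis, with 1 point per library and a line at the median of 28. Only for Top1mt do the 4 SCR libraries (red) lie apart from the 24 others (grey).

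Top1mt was low in every SCR library. It stood at 5.11 CPM (428 counts) in clone 12, 4.52 CPM (183) in clone 14, 3.85 CPM (130) in clone 18 and 5.05 CPM (228) in clone 25 with SCR siRNA, a mean of 4.63 ± 0.584 CPM (SD, n = 4). The 24 other libraries ran from 10.1 to 20.0 CPM with a median of 14.1 and a mean of 14.5 ± 2.53 CPM (SD, n = 24), a ratio of means of 3.13. The sets did not overlap. Of all 15099 genes, 0.291% (44 genes) had all SCR libraries below all others and 0.0132% (2 genes) had them above. In bulk RNA, fewer cells with the transcript and less transcript per cell cannot be told apart.

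The low level was common to tagged and untagged cells and to each siRNA set against SCR. In clone 12 the 7 other libraries lay at 10.1 to 19.8 CPM, on average 2.88 times the SCR library, and in clone 14 at 13.2 to 20.0 CPM, 3.62 times. In clone 18 FLAG and HA siRNA gave 14.7 and 12.5 CPM, 3.54 times the SCR library on average, and in clone 25 13.8 and 14.2 CPM, 2.77 times. On the log2 scale Top1mt differed from SCR by 1.73 (SE 0.19) with tag siRNA and by 1.79 (SE 0.18) with cyclin D1 siRNA in tagged clones, and by 1.64 (SE 0.19) with tag siRNA in untagged clones, where Ccnd1 stayed at 1310 to 1330 CPM with SCR and 1010 to 1290 CPM with tag siRNA. Both comparisons in tagged clones share the SCR libraries of clones 12 and 14, and the one in untagged clones uses those of clones 18 and 25. The response of tagged clones minus that of untagged clones was 0.09 (SE 0.25), and it turned to -0.07 without SCR clone 14, to -0.09 without SCR clone 25 and to -0.01 without FLAG clone 25. Untransfected cells were near the targeting siRNAs: both untreated libraries had 13.2 CPM, and SCR minus untreated was -1.45 (SE 0.20).

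**Figure D2:**
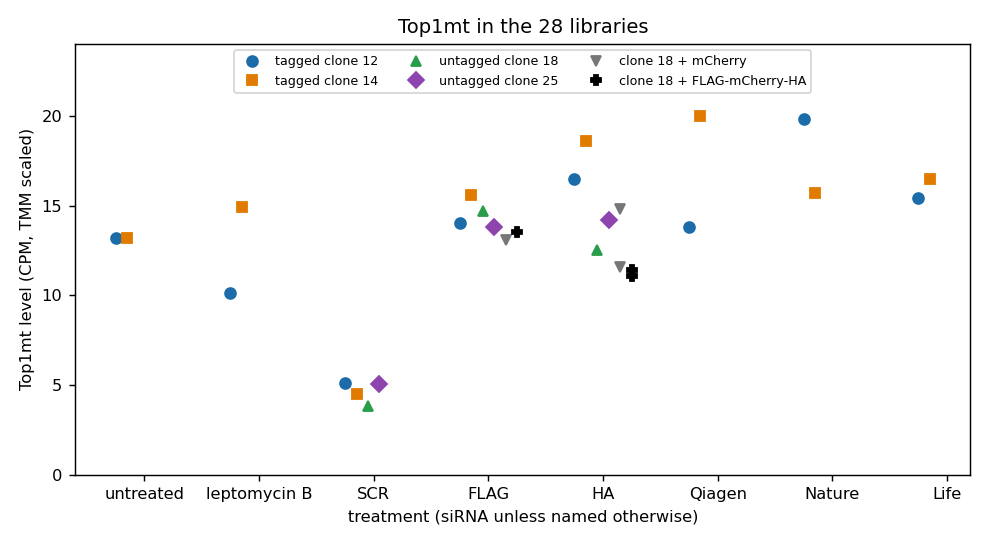
Top1mt level in CPM (TMM scaled) in each of the 28 libraries by treatment, with symbols for the clone or line. The 4 SCR libraries sit between 3.85 and 5.11 CPM, all others between 10.1 and 20.0 CPM.

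Outside SCR, 0 of 8 comparisons called Top1mt by edgeR or DESeq2, and 0 had an unadjusted p under 0.05. With targeting siRNA the tagged libraries held 13.8 to 20.0 CPM, which differed from untreated by 0.32 on the log2 scale (SE 0.16, edgeR adjusted p = 0.131). Leptomycin B gave 10.1 CPM in clone 12 and 14.9 CPM in clone 14, on either side of the untreated level (log2 difference -0.09, SE 0.20, adjusted p = 0.834 by edgeR). In the lines of clone 18 it stood at 11.6, 14.8 and 13.1 CPM with mCherry and at 11.1, 11.4 and 13.5 CPM with FLAG-mCherry-HA (difference -0.13, SE 0.16, edgeR adjusted p = 0.77). The nearest tested genes on chromosome 15 were Zfp41, Ly6f and Ly6c1 on one side and Rhpn1, Zc3h3 and Gsdmd on the other. From the start of Top1mt they lay at -51352, -406563 and -629880 bases, and at 25446, 75630 and 183344 bases, so not all were close to it. Each had an SCR range that overlapped that of the other libraries. Zc3h3, for instance, stood at 10.6 to 17.5 CPM in SCR and 11.4 to 19.7 CPM in other libraries. Such overlap does not set these genes apart, since only 0.291% of all genes had all SCR libraries below all others. Ly6f reached at most 0.332 CPM and Rhpn1 at most 1.8 CPM, levels too low to show much. Against SCR, edgeR called Ly6c1 lower with tag siRNA in tagged clones (-0.96, adjusted p = 0.0149) and in untagged clones (-1.19, adjusted p = 0.00366). It also called Zfp41 lower with cyclin D1 siRNA in tagged clones (-0.77, adjusted p = 0.00504). These differences were opposite in direction to that of Top1mt, and no other difference of these neighbours against SCR was called. Beyond these single genes, whether the low SCR level is particular to Top1mt in this region was not tested.

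The genes whose levels followed Top1mt most closely over the 22 libraries of the 4 clones, after each clone's mean was subtracted, were Taldo1 (transaldolase of the pentose phosphate pathway), Exoc7 (an exocyst subunit), Mocs2 (molybdenum cofactor synthesis), Pex6 (a peroxisome import factor) and Rnf40 (a histone H2B ubiquitin ligase). Their Pearson r with Top1mt was 0.965, 0.949, 0.943, 0.935 and 0.929 among 11772 genes, as a description of libraries that share clones and siRNAs. All 5 were among the 44 genes that lay lower in every SCR library than in any other. Without the 4 SCR libraries, r over the 18 others was 0.606, 0.521, 0.227, 0.5 and 0.359, and 0 of the 5 remained among the closest genes. Mul1, an E3 ligase of the mitochondrial outer membrane, then came first (r = 0.925, against 0.283 with SCR included).

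Top1, the nuclear relative of Top1mt, showed no low SCR level. It stood at 247, 241, 182 and 280 CPM in the SCR libraries of clones 12, 14, 18 and 25 and at 131 to 310 CPM in the others, so the sets overlapped. Per kilobase, Top1 exceeded Top1mt 23.3 to 27.4 times in SCR libraries and 4.32 to 11.1 times in the other 24. Top1 was instead lowest with leptomycin B, at 175 CPM in clone 12 and 131 CPM in clone 14, against 267 and 215 CPM in the untreated libraries. The leptomycin B libraries lay below the 14 other tagged libraries, an order seen in 3.28% of genes. Top1 fell by 0.66 on the log2 scale (SE 0.17, edgeR adjusted p = 0.0191; -0.61 and -0.72 by clone) and was the 1 of 6 members called, where 9.99% of all genes were called. The call ended without the untreated library of clone 12 (-0.54, adjusted p = 0.167) and without the leptomycin B library of clone 14 (-0.49, adjusted p = 0.164). Targeting siRNAs left Top1 at 221 to 310 CPM, a difference from untreated of 0.09 (SE 0.13, edgeR adjusted p = 0.665).

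Type IIA genes were lower with targeting siRNAs than in untreated cells, and Top2b stood about as low with SCR siRNA. In clone 12 Top2a stood at 978 CPM untreated, 813 CPM after leptomycin B and 739 CPM after SCR siRNA, and at 470, 463, 530, 380 and 514 CPM with FLAG, HA, Qiagen, Nature and Life siRNA. In clone 14 it stood at 920, 792 and 757 CPM, and at 601, 632, 488, 667 and 659 CPM in the same order. All 10 targeting libraries were therefore below both untreated libraries, as for 5.69% of genes, and also below both SCR libraries, as for 0.874% of genes. Top2a fell by 0.83 on the log2 scale against untreated (SE 0.14, edgeR adjusted p = 0.000744; -1.06 and -0.60 by clone). The call held in each of 12 fits that left out 1 library, with changes of -1.0 to -0.65.

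Of the 6 members, 3 were called in that comparison, Top2a, Top2b and Top3a, all lower. Among all genes 30.5% were called and 17.6% were lower. Top2b stood at 185 and 232 CPM untreated in clones 12 and 14 and at 126 to 216 CPM with targeting siRNA, so its groups overlapped. It fell by 0.44 on the log2 scale (SE 0.13, edgeR adjusted p = 0.0162; -0.27 and -0.61 by clone), and the call ended without the untreated library of clone 14 (-0.29, adjusted p = 0.349). With SCR siRNA, Top2b stood at 145 and 153 CPM in the same clones. SCR minus untreated was -0.48 for Top2b (SE 0.17, edgeR adjusted p = 0.108), so its difference from untreated was not particular to targeting siRNAs. With targeting siRNA against untreated, Top1, Top1mt and Top3b were not called, the last with a difference of -0.11 (SE 0.10, edgeR adjusted p = 0.421).

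Against SCR in the tagged clones, Top2a differed by -0.48 with tag siRNA (SE 0.16, edgeR adjusted p = 0.114) and by -0.49 with cyclin D1 siRNA (SE 0.15, adjusted p = 0.0739), neither called. The second was called without the Nature library of clone 14 (-0.62, adjusted p = 0.0113) and without the 4 libraries rich in Rn45s (-0.69, adjusted p = 0.0122). In untagged clones Top2a went from 666 CPM with SCR to 464 with both FLAG and HA siRNA in clone 25. In clone 18 the SCR, FLAG and HA libraries held 845, 547 and 845 CPM. The pooled difference there was -0.41 (SE 0.17, edgeR adjusted p = 0.295), and the tagged response differed from the untagged one by -0.07 (SE 0.24, adjusted p = 1). Top2b against SCR was -0.09 (SE 0.15) with tag siRNA and 0.12 (SE 0.14) with cyclin D1 siRNA in tagged clones.

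Top2b was higher with Qiagen siRNA than with the other targeting siRNAs. It was at 216 CPM in clone 12 and 189 CPM in clone 14 with Qiagen siRNA, against 126 to 172 CPM and 136 to 156 CPM with the 4 other targeting siRNAs. Qiagen was thus the highest of the 5 in both clones, as for 10.9% of genes. Top2b was higher by 0.51 on the log2 scale (SE 0.13, edgeR adjusted p = 0.0159; 0.62 and 0.40 by clone), the 1 member called of 6, where 13.7% of genes were called. The call ended without the Qiagen library of clone 12 (0.36, adjusted p = 0.386) and without the libraries over 2% Rn45s (0.46, adjusted p = 0.0504). Top2a with Qiagen siRNA was 0.22 in clone 12 and -0.39 in clone 14 relative to the other 4. Per kilobase, Top2a exceeded Top2b 4.85 to 16.1 times over the 28 libraries.

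**Figure D3:**
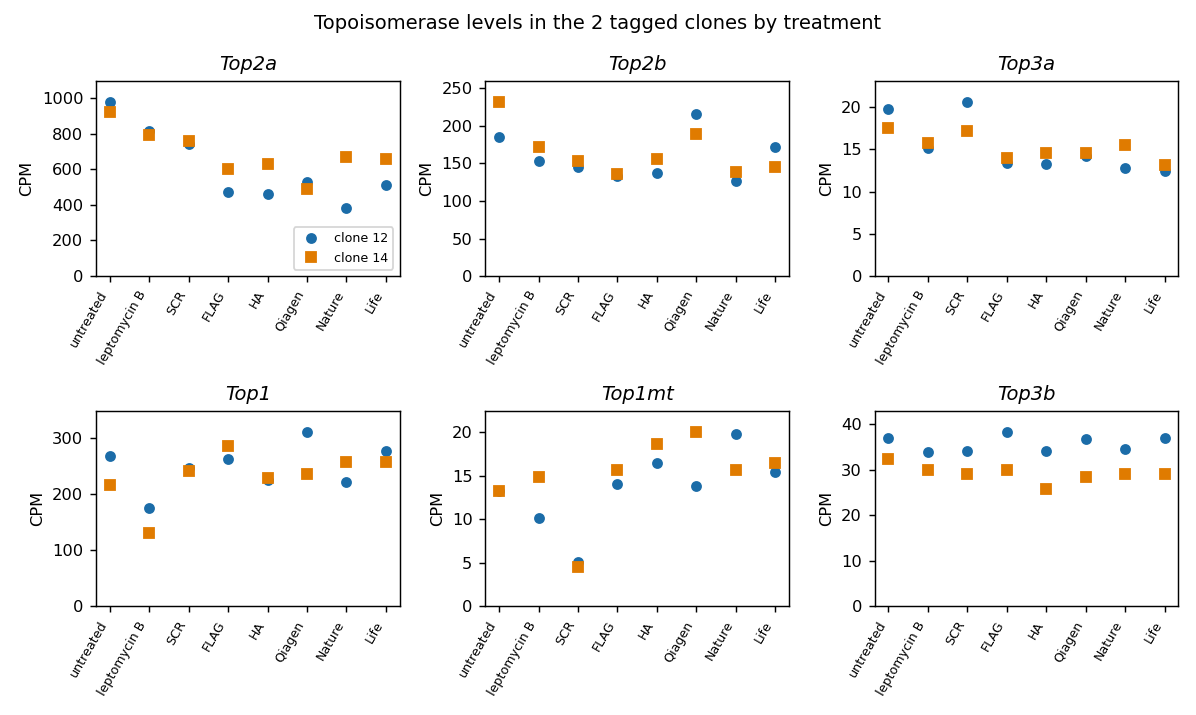
Levels in CPM of the 6 genes in tagged clones 12 (circles) and 14 (squares) for each of 8 treatments, 1 library per point. Top2a and Top3a are lower with the 5 targeting siRNAs than untreated, Top2b is highest among the siRNAs with Qiagen, Top1 is low with leptomycin B and Top1mt with SCR.

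Of the type IA pair, Top3a was lower with targeting siRNA and Top3b was not called in any comparison. Top3a stood at 19.8 and 17.5 CPM in the untreated libraries of clones 12 and 14, at 20.6 and 17.2 CPM with SCR siRNA, and at 12.4 to 15.5 CPM in the 10 targeting libraries. The 10 lay below both untreated libraries, as for 5.69% of genes, and below both SCR libraries, as for 0.874%. Top3a fell by 0.44 on the log2 scale against untreated (SE 0.11, edgeR adjusted p = 0.00659; -0.59 and -0.29 by clone). That call ended without the untreated library of clone 12 (-0.32, adjusted p = 0.155). Leptomycin B gave 15.1 CPM in clone 12 and 15.7 CPM in clone 14, within each clone between the targeting and the untreated libraries. The difference from untreated was -0.28 (SE 0.14, edgeR adjusted p = 0.247).

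Against SCR, Top3a was the 1 member called of the 5 tested. It differed by -0.46 with tag siRNA (SE 0.12, edgeR adjusted p = 0.0452), where 3.86% of genes were called, and by -0.46 with cyclin D1 siRNA (SE 0.12, adjusted p = 0.0244), where 5.40% were. Since the SCR libraries are those by which Top1mt was singled out, nothing is read from these shares. Both calls ended without the SCR library of clone 12, at -0.29 with adjusted p = 0.726 for tag siRNA and 0.636 for cyclin D1 siRNA. The first also ended without any 1 of the FLAG and HA libraries (adjusted p = 0.0816 to 0.14) and without the Rn45s-rich libraries (-0.41, adjusted p = 0.144), and the second without Nature clone 12 (0.0565) or Life clone 12 (0.054). The SCR, FLAG and HA libraries of untagged clone 18 held 19.1, 14.8 and 19.2 CPM of Top3a, and those of clone 25 held 18.3, 15.2 and 15.4 CPM (pooled -0.22, SE 0.12, edgeR adjusted p = 0.551).

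Top3b differed between clones, as many genes did. It was higher in clone 12 than in clone 14 in 8 of 8 matched treatments, by 0.29 ± 0.09 on the log2 scale (SD, n = 8), and lower in clone 18 than in clone 25 in 3 of 3, by 0.30 ± 0.06 (SD, n = 3). A difference of 1 direction in all matched treatments was found for 43.2% of genes between clones 12 and 14 and for 67.7% between clones 18 and 25. Clone 12 libraries held 33.9 to 38.3 CPM and clone 14 libraries 25.9 to 32.4 CPM, and 19.0% of genes had no overlap between these clones. Clone 18 was also below clone 25 in 3 of 3 treatments for Top2b (mean difference -0.82) and Top1 (-0.52), and above it in 3 of 3 for Top2a (0.48). As each line is 1 clone, these differences are between clones and not between tagged and untagged cells.

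In the remaining comparisons 0 members were called. Tag siRNA minus SCR in untagged clones called 0 of 5 (2.68% of all genes), with 1 at an unadjusted p under 0.05 and 0 by DESeq2. The tagged minus untagged response called 0 of 5 (0.00662%), with 0 unadjusted and 0 by DESeq2. SCR minus untreated called 0 of 5 (5.29%), with 1 unadjusted, Top2b at -0.48 (SE 0.17, edgeR adjusted p = 0.108), and 0 by DESeq2. Tag minus cyclin D1 siRNA called 0 of 6 (6.99%), with 0 unadjusted and 0 by DESeq2, and its differences ran from -0.21 for Top2b (SE 0.11) to 0.01 for Top2a (SE 0.12) and Top3a (SE 0.09). HA minus FLAG siRNA called 0 of 6 (8.53%), with 2 unadjusted and 0 by DESeq2. Those 2 were Top2b at 0.25 (SE 0.10) and Top3b at -0.16 (SE 0.07). Top2b was called without HA clone 25 (0.37, edgeR adjusted p = 0.0169) and Top3b without FLAG-mCherry-HA REP2 with HA siRNA (-0.27, adjusted p = 0.0242). Nature siRNA called 0 of 6 (9.93%) and Life siRNA 0 of 6 (14.2%) against the other targeting siRNAs, with 0 unadjusted and 0 by DESeq2 in both. FLAG-mCherry-HA minus mCherry called 0 of 6 (0% of genes), with 1 unadjusted, Top2b at 0.31 (SE 0.14, edgeR adjusted p = 0.529), and 0 by DESeq2.

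**Figure D4:**
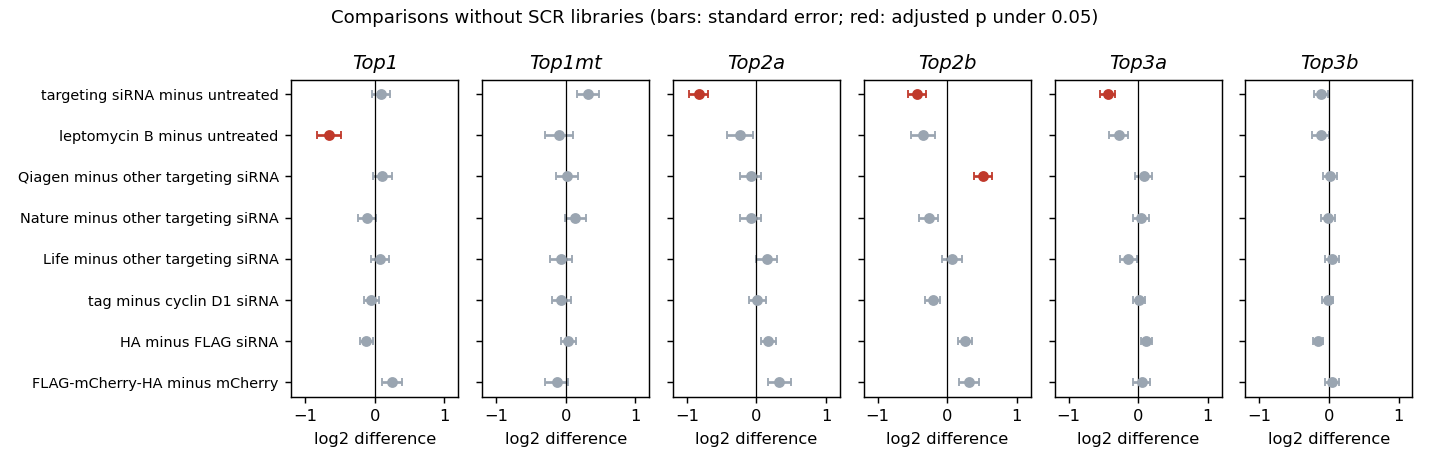
Log2 differences of the 6 genes in the 8 comparisons that hold no SCR library, with bars of 1 standard error. The 5 called differences (red) are Top2a, Top2b and Top3a for targeting siRNA, Top2b for Qiagen siRNA and Top1 for leptomycin B.

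Genes that work with TOP2A on chromosomes were lower together with it. Of 16 genes of condensin, cohesin and their chromosome partners, all tested, 14 were called lower with targeting siRNA than untreated, where 17.6% of all genes were, with a median log2 difference of -0.45 against 0 for all genes. They included Espl1 (separase, which cuts cohesin; -1.01, SE 0.15, edgeR adjusted p = 0.000342) and the condensin subunits Ncapd2 (-0.67), Ncapg2 (-0.91) and Ncapd3 (-0.81). Without the untreated library of clone 12 the count was 8, and without that of clone 14 it was 9, where all called genes fell from 4607 to 2556 and 570. Espl1 was at 145 and 108 CPM untreated and at 48.6 to 73.3 CPM in the 10 targeting libraries. SCR minus untreated called 0 of the 16, where 5.29% of all genes were called, but 14 were negative (median -0.25 against -0.02 for all genes). Against SCR few of the 16 were called, though most were negative. In tagged clones 15 were negative with tag siRNA (median -0.29 against 0.03 for all genes) and 15 with cyclin D1 siRNA (-0.35 against 0.02). In untagged clones 14 were negative with tag siRNA (-0.13 against -0.01). Tag siRNA in tagged clones called 1, where 3.86% of all genes were called: Ncapd3 (-0.75, SE 0.17, edgeR adjusted p = 0.0152). Cyclin D1 siRNA called 2, where 5.40% of all genes were: Espl1 (-0.68, edgeR adjusted p = 0.0213) and Ncapd2 (-0.45, adjusted p = 0.0291). These 3 differences were all lower. Tag siRNA in untagged clones called 0 of the 16, where 2.68% of all genes were called. The list was drawn up with earlier results of these data known.

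The closest followers of Top2a over the 22 clone libraries were Ercc6l (a helicase of fine anaphase bridges), Ncapg, Ncapg2, Kif11 (a spindle kinesin) and Espl1, with Pearson r of 0.958, 0.939, 0.931, 0.92 and 0.919. Without the SCR libraries 4 of the 5 remained, with Ercc6l at 0.956 and Iqgap3 in place of Kif11. These correlations carry no test, since libraries of a clone and of an siRNA are not independent.

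**Figure D5:**
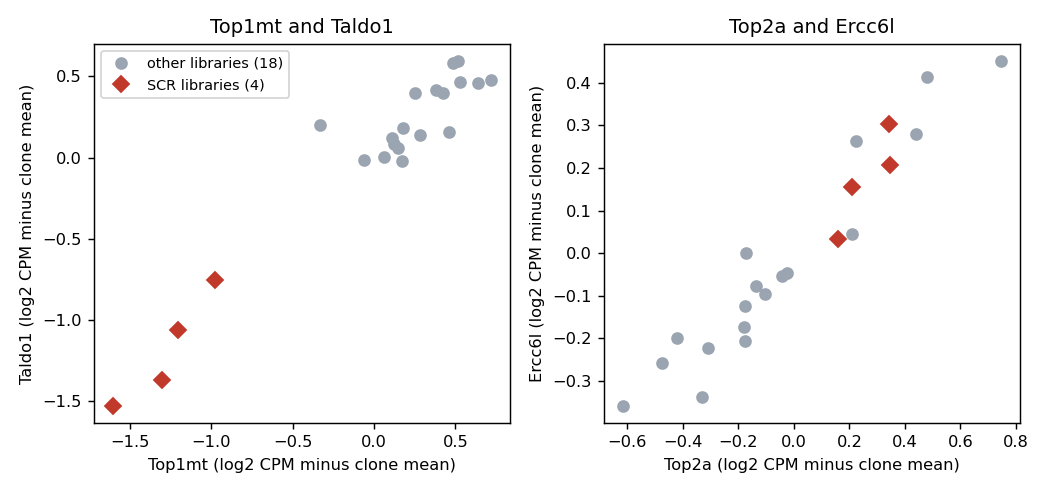
Levels of Top1mt and Taldo1 (left) and of Top2a and Ercc6l (right) as log2 CPM minus the clone mean, 1 point per library of the 4 clones. On the left the 4 SCR libraries (red) lie apart from the 18 others (grey), and r falls from 0.965 to 0.606 without them; on the right r is 0.958 with and 0.956 without them.

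Among 22 genes that repair topoisomerase adducts or bind topoisomerases, 21 were tested, and Spo11 was too low. With targeting siRNA against untreated 10 were called lower, where 17.6% of all genes were (median -0.16 against 0 for all genes). They included Tdp1, which frees TOP1 from the DNA end (-0.62, SE 0.09, edgeR adjusted p = 0.000351), Topbp1, a checkpoint adaptor (-0.80, adjusted p = 0.000403), and the nuclease partners Rad50 (-0.81, adjusted p = 0.000697) and Mre11a (-0.66, adjusted p = 0.000935). The count of this list fell when either untreated library was left out, and so did the count over all genes. Leptomycin B called 2 of the 21, both lower, a share near the 9.99% of all genes called: Lig3, a DNA ligase of nucleus and mitochondria (-0.60, edgeR adjusted p = 0.00605), and Blm, the helicase that works with TOP3A (-0.63, adjusted p = 0.0252).

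Genes that maintain and transcribe mitochondrial DNA were called about as often as all genes in 3 comparisons. These were SCR minus untreated, tag siRNA against SCR in tagged clones, and targeting siRNA against untreated. Leptomycin B called 1 higher and 4 lower of 30, where 9.99% of all genes were called. Cyclin D1 siRNA against SCR called 0 of 30, where 5.40% of all genes were called. Of 30 such genes, all tested, SCR minus untreated called 1, where 5.29% of all genes were called: Tfam, which packages mitochondrial DNA, at -0.39 (SE 0.11, edgeR adjusted p = 0.046). Against SCR, tag siRNA in tagged clones called 2, where 3.86% of all genes were, both lower and so opposite to Top1mt: Dna2, a nuclease-helicase (-0.60, adjusted p = 0.0254), and Slc25a36, a nucleotide carrier (-0.96, adjusted p = 0.045). The median of the list against SCR was 0.04 with tag siRNA and 0.05 with cyclin D1 siRNA in tagged clones, beside 0.03 and 0.02 for all genes. With targeting siRNA against untreated 4 were higher and 6 lower, 10 of 30 where 30.5% of all genes were called, among them Dna2 (-0.64), Mgme1 (a mitochondrial exonuclease; -0.48), Peo1 (the Twinkle helicase; -0.51) and Slirp (an RNA-binding protein; 0.57). Both counts of this list fell when either untreated library was left out, and so did the count over all genes.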

How the data were processed

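RNA-seq libraries made with a stranded poly(A) kit were read as single reads of 100 bases, per the labels' protocols. Per the submitters' processing notes the authors used TopHat2 2.0.13 and Bowtie2 2.2.3, HTSeq 0.6.1p1, CASAVA 1.8.2 and FastQC, and genome build mm10. Their deposited table holds raw counts by gene. Which annotation and strand setting were used is not stated in the labels, and genes on opposite strands may share reads. The 22 rows without a gene ID held at most 0.0137% of a library's counts and were kept.

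Counts were fitted in R 4.3.3 with edgeR 4.0.16: filterByExpr, TMM scaling and 1 robust quasi-likelihood model for the 28 libraries and 15 groups (17 coefficients, 11 residual degrees of freedom). The clone, or the matched pair for mCherry lines, was a block, because the groups compared hold the same clones; deviations of libraries of 1 clone correlated by at least 0.834 in 56 tagged pairs and 0.862 in 6 untagged pairs. P-values were adjusted by Benjamini-Hochberg over 15099 genes at 0.05. They measure the spread of these libraries around clone and treatment levels, which may be technical. Standard errors are the log2 difference over the square root of F. CPM used TMM scaling, and log2 CPM a prior count of 2. Exon lengths came from the GENCODE transcripts that match RefSeq. Of all rows, 23977 matched the annotation.

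Members, gene lists and tests were chosen with earlier results of these data known. Named genes were the 6 members, up to 4 called genes with the smallest p per list, the 3 nearest tested genes on each side of Top1mt, and the 5 genes of highest r with Top1mt and Top2a among genes of at least 1 CPM. Zc3h3 was singled out, and Mul1 and Iqgap3 named, after their values were seen. Alternatives were relative log expression scaling, non-robust dispersion, no filter, at least 1 CPM in 4 libraries, no block, DESeq2 1.42.0, a fit of a comparison's libraries alone, leaving out the 4 libraries over 2% Rn45s, the Rn45s row, or each library in turn. Gene list counts without single libraries were added after seeing the data. The edgeR model was tested on simulated data.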

Additional observations from a re-analysis of the deposited data

How the results depend on the processing

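The ratio of Top1mt in other to SCR libraries was 3.13, 3.1 with relative log expression scaling and 2.96 to 3.24 when each SCR library was left out. Without the clone or pair block (no replicate block) the members called were 0 in place of 1 for tag siRNA and for cyclin D1 siRNA against SCR in tagged clones, 0 in place of 3 for targeting siRNA against untreated, and 0 in place of 1 for Qiagen siRNA and for leptomycin B. All genes called for targeting siRNA against untreated went from 4607 to 16 there, and for leptomycin B from 1508 to 48. With no filter, tag siRNA against SCR called 0 members. Fitting only the libraries of the comparison called 2 members for tag siRNA against SCR, 0 for cyclin D1 siRNA against SCR and 3 for leptomycin B. Without the libraries over 2% Rn45s the counts were 0, 2 and, for Qiagen siRNA, 0, the first 2 being tag and cyclin D1 siRNA against SCR. Leaving out 1 library at a time gave 0 to 1 members for tag siRNA against SCR, 0 to 2 for cyclin D1 siRNA against SCR, 0 to 1 for HA minus FLAG, 0 to 1 for Qiagen and 0 to 1 for leptomycin B, and -0.09 to 0.28 for Top1mt in the tagged minus untagged response. Of the 5 genes closest to Top1mt, 0 remained without the SCR libraries. DESeq2 called the same members as edgeR in all 13 comparisons. Over all alternatives, 1332 of 1367 values of single members kept direction and call. That total includes members not called in the main fit and Top1mt values without a test, so it does not measure how firm the calls were. Top3a calls against SCR changed in 8 of 15 alternatives with tag siRNA and 5 of 17 with cyclin D1 siRNA. Against untreated, targeting siRNA calls changed in 1 of 21 for Top2a and 2 of 21 each for Top2b and Top3a. The Qiagen call of Top2b changed in 3 of 19, and the leptomycin B call of Top1 in 3 of 13. The cause was not tested where a call changed, except that leaving out a library leaves fewer samples. The low counts of Top1mt in SCR libraries, 130 to 428, limit the precision of its level there.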

Other observations

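Some genes of the 3 lists differed with single siRNAs, and Mre11a, Tdp1 and Rrm2b, chosen after their values were seen, had the smallest adjusted p in their list for HA minus FLAG, Life and Nature siRNA. Of the 21 tested genes of adduct repair and partners, HA minus FLAG called 1 (8.53% of all genes) and Life siRNA 2 (14.2%). Of the 30 mitochondrial genes, Nature siRNA called 2 higher and 1 lower (9.93% of all genes called). The lists were thus called about as often as all genes or less, and the 3 genes are single cases. Mre11a, a nuclease that trims blocked DNA ends, was lower with FLAG than with HA siRNA in all 6 matched pairs: 40.4 and 58.1 CPM in clone 12, 29.6 and 54.3 CPM in clone 14, 30.0 and 69.8 CPM in clone 18, 47.8 and 67.0 CPM in clone 25, 30.1 and 60.1 CPM in the mCherry line, and 29.6 and 63.5 CPM in the FLAG-mCherry-HA line. HA minus FLAG was 0.86 on the log2 scale (SE 0.09, edgeR adjusted p = 8.9e-06). With SCR siRNA it stood at 59.8 to 73.7 CPM in the 4 clones.

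Tdp1 was lowest with Life siRNA, at 21.6 and 12.6 CPM in clones 12 and 14 against 32.1 to 39.0 and 26.5 to 30.4 CPM with the other targeting siRNAs (-0.93, SE 0.11, edgeR adjusted p = 1.82e-05). Rrm2b, a ribonucleotide reductase subunit that supplies nucleotides for mitochondrial DNA, was lowest with Nature siRNA, at 8.88 and 14.7 CPM against 22.0 to 39.9 and 25.8 to 37.7 CPM (-1.33, SE 0.18, edgeR adjusted p = 0.000102).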
